A study of Arabidopsis thaliana with 18 samples.

Results

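The early auxin response genes described here are 8 genes of Arabidopsis roots from 3 families: GH3.1, GH3.3 and WES1 (also called GH3.5) of the GH3 family, LBD16 and LBD29 of the LBD family, and IAA20, IAA29 and IAA30 of the Aux/IAA family. Each was matched by locus, with its name checked, to a probe set that GEO's platform annotation gives for exactly 1 gene. All 8 had 1 such probe set each, among 16722 of that kind in a table of 38408 features, and all 8 entered every test. Their loci are AT2G14960 (GH3.1), AT2G23170 (GH3.3), AT4G27260 (WES1), AT2G42430 (LBD16), AT3G58190 (LBD29), AT2G46990 (IAA20), AT4G32280 (IAA29) and AT3G62100 (IAA30).

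Auxin acts in the nucleus by bringing Aux/IAA repressors to TIR1/AFB receptors, which leads to their degradation and frees auxin response factors (ARFs) to act on their target genes. Among the first transcripts to respond are those of Aux/IAA genes themselves, of GH3 enzymes, which join auxin to amino acids and so lower its free level, and of LBD transcription factors, which in the root are known from the start of lateral root formation. Primary auxin response genes are known to respond without new protein synthesis.

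Levels were measured on 18 gene arrays, 3 in each of 6 groups, with total RNA from roots of seedlings 4 days old. The root groups were whole root tips of the Col-0 ecotype with pRPS5A-TMO5-GR, collected after 1 h on MS medium with dexamethasone and cycloheximide (root DEX+CHX), with cycloheximide (root CHX), with dexamethasone (root DEX) or on MS medium alone (root MS). RPS5A is a promoter known to be active in dividing cells, TMO5 is a basic helix-loop-helix factor of vascular development, and its fusion to the glucocorticoid receptor (GR) acts once dexamethasone is present. Cycloheximide blocks protein synthesis. The J0571 groups were GFP-positive cells sorted from protoplasted roots of the C24 ecotype carrying J0571>>pUAS-TMO5-GR, 2 h after transfer to dexamethasone (J0571 DEX) or to MS medium (J0571 control). The J0571 enhancer trap is known to drive expression in the cortex and endodermis, which make up the ground tissue. Every group carried a TMO5-GR construct, so an effect of dexamethasone itself and one of TMO5-GR cannot be told apart.

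Signals were log2 values made by the authors with RMA, so a difference of 1 is a doubling. Array medians lay between 4.50 and 4.87, and pairs of arrays within a group correlated with r from 0.982 to 0.992 across features. On the first principal component of the J0571 arrays, which held 32.2% of their variance, J0571 control replicate 3 stood apart at -57.2, against -10.1 to 33.7 for the other 5. Of 15 ground tissue markers, 4 had a feature of their own, and all 4 were higher in J0571 control than in root MS, among them JKD, a ground tissue transcription factor, by 0.87 (SE 0.11, limma adjusted p = 9.63e-06). Of 8 epidermis and root hair markers, the 2 with such a feature were lower, EXPA7 by -2.50 (SE 0.18, adjusted p = 1.83e-08) and EXPA18 by -2.27 (SE 0.26, adjusted p = 3.75e-06). Markers of the stele and the root cap had none in the annotation used and were not analysed here.

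Cycloheximide gave the largest differences in this gene set. In root tips given cycloheximide alone, 6 of the 8 genes rose against root MS: GH3.1, GH3.3, WES1, LBD16, LBD29 and IAA29. The rise was 15.2-fold for GH3.1, 13.4-fold for GH3.3, 9.44-fold for LBD29, 3.60-fold for LBD16, 2.44-fold for IAA29 and 2.01-fold for WES1. IAA20 and IAA30 did not pass. Over all 38408 features 30.1% passed the same test (limma, adjusted p under 0.05), 10.4% higher and 19.7% lower. The median log2 change of the 8 genes was 1.57, beside -0.13 over all features and -0.05 over features of exactly 1 gene. In RNA from whole tissue a changed share of cells of a type and a changed amount of RNA per cell cannot be told apart.

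**Figure D1:**
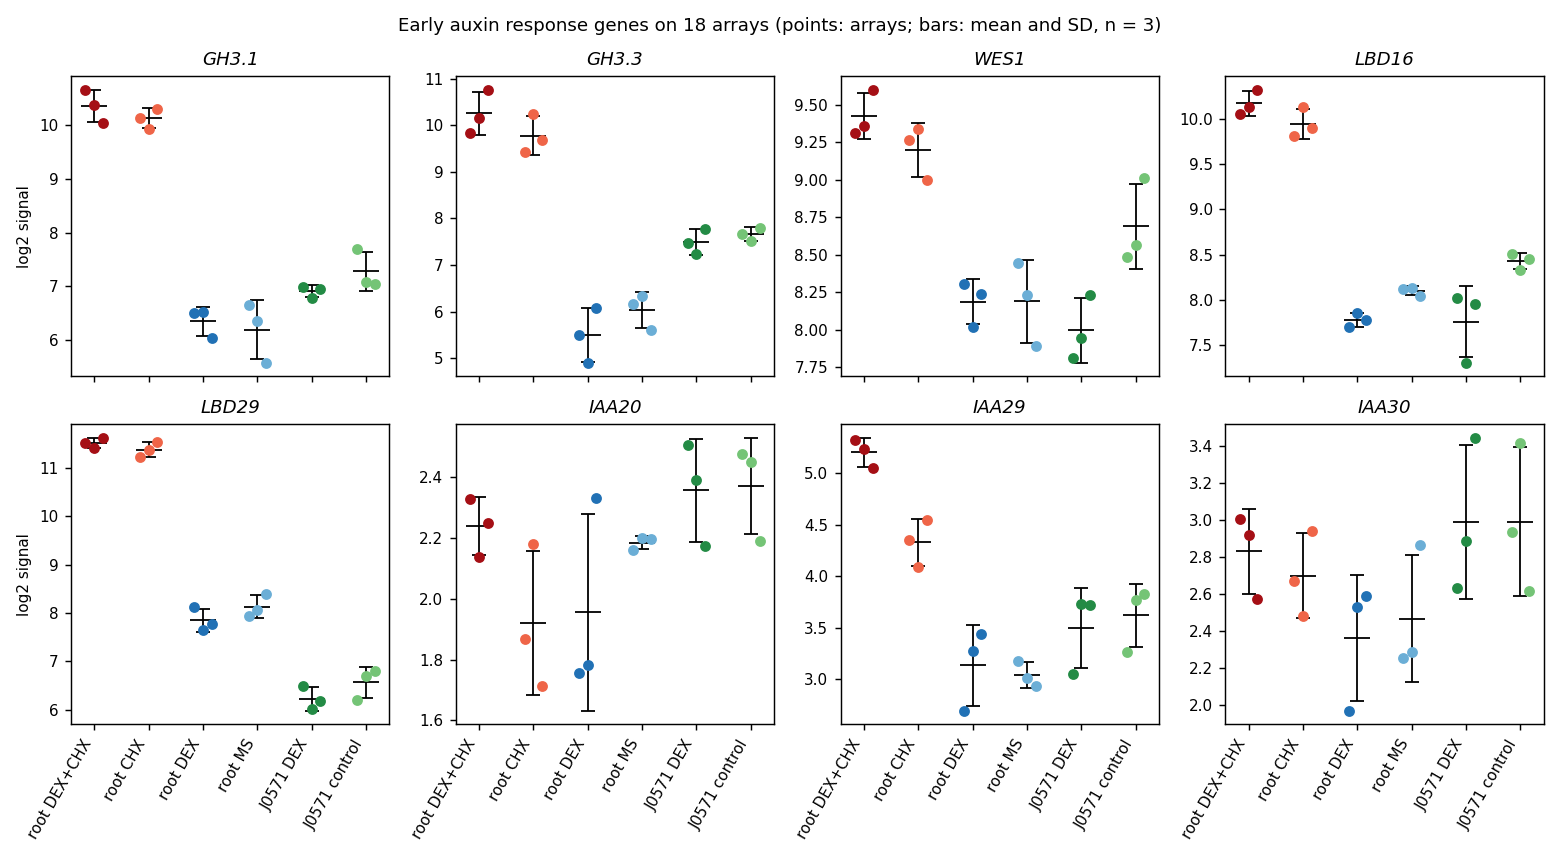
Log2 signal of each of the 8 genes on each array, by group. Points are arrays, bars are the mean and SD of 3 arrays, and the vertical scale differs between panels. For the GH3 genes, LBD16, LBD29 and IAA29 every array with CHX lies above every root array without it, while for IAA20 and IAA30 neighbouring groups overlap.

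Of the GH3 enzymes, GH3.1 and GH3.3 had the largest changes of the 8 genes. GH3.1 stood at 10.13, 9.93 and 10.30 in root CHX, against 6.65, 6.35 and 5.58 in root MS, a log2 change of 3.92 (SE 0.26, 95% interval 3.34 to 4.51, adjusted p = 2.12e-06). GH3.3 stood at 9.43, 10.23 and 9.67 in root CHX, against 6.17, 6.33 and 5.60 in root MS, a change of 3.75 (SE 0.34, 95% interval 2.99 to 4.50, adjusted p = 2.06e-05). By change, GH3.1 ranked 67 and GH3.3 ranked 78 among the 16722 features of exactly 1 gene. The rise of WES1, an enzyme that also acts on salicylic acid, was smaller: 9.27, 9.34 and 9.00 in root CHX, against 8.44, 8.23 and 7.90 in root MS (change 1.01, SE 0.15, 95% interval 0.67 to 1.35, adjusted p = 0.000757). The interval for WES1 does not reach those of GH3.1 and GH3.3, and in all 3 genes the arrays of both groups lay fully apart, as they did upward in 14.5% of all features.

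LBD16 and LBD29 are transcription factors known to act downstream of ARF7 and ARF19 in lateral root initiation. LBD29 stood at 11.22, 11.36 and 11.53 in root CHX, against 7.94, 8.06 and 8.39 in root MS, a change of 3.24 (SE 0.15, 95% interval 2.90 to 3.58, adjusted p = 1.59e-07). By change it ranked 125 among the 16722 features of exactly 1 gene. LBD16 stood at 9.81, 10.13 and 9.90 in root CHX, against 8.13, 8.13 and 8.04 in root MS, a change of 1.85 (SE 0.10, 95% interval 1.62 to 2.08, adjusted p = 5.69e-07). The groups did not overlap for either gene, as upward in 14.5% of all features, and the interval of LBD29 lay above that of LBD16.

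Of the 3 Aux/IAA repressors, 1 passed. IAA29, known from growth responses to shade and warmth, stood at 4.36, 4.09 and 4.54 in root CHX, against 3.18, 3.01 and 2.94 in root MS (change 1.29, SE 0.19, adjusted p = 0.000558). Its groups did not overlap, as upward in 14.5% of all features. IAA20 and IAA30 are relatives that lack the degron through which auxin triggers degradation. IAA20 stood at 1.87, 2.18 and 1.71 in root CHX, against 2.16, 2.20 and 2.20 in root MS (change -0.26, 95% interval -0.62 to 0.09, adjusted p = 0.251). IAA30 stood at 2.67, 2.48 and 2.94 in root CHX, against 2.25, 2.28 and 2.86 in root MS (change 0.23, 95% interval -0.25 to 0.71, adjusted p = 0.473). The groups overlapped for both. IAA20 lay no higher than the 18.6 percentile of all features on any array and IAA30 no higher than the 37.4 percentile. IAA29 lay between the 25.6 and 31 percentile in root MS and between the 45.5 and 49.2 percentile in root CHX. Whether any of the 3 exceeded background was not tested.

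Cycloheximide was also tested in the presence of dexamethasone, on other arrays of the same fit. The same 6 genes rose in root DEX+CHX against root DEX, where 33.7% of all features passed, 11.6% higher and 22.1% lower. The features that rose in both comparisons were 87.8% of those that rose with CHX alone and 78.5% of those that rose with CHX in the presence of dexamethasone. The median change of the 8 genes was 2.23, beside -0.13 over all features and -0.05 over features of exactly 1 gene. The same 6 genes passed in all 16 alternatives of either comparison.

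GH3.3 showed the largest change, with 9.84, 10.15 and 10.76 in root DEX+CHX, against 5.50, 4.90 and 6.08 in root DEX, or 27.1-fold (log2 4.76, SE 0.34, adjusted p = 2.9e-06). GH3.1 stood at 10.64, 10.37 and 10.04 in root DEX+CHX, against 6.50, 6.52 and 6.03 in root DEX (log2 4.00, SE 0.26, adjusted p = 1.53e-06). LBD29 stood at 11.52, 11.41 and 11.62 in root DEX+CHX, against 8.12, 7.65 and 7.77 in root DEX (log2 3.67, SE 0.15, adjusted p = 5.62e-08). All arrays of root DEX+CHX lay above all of root DEX for these 3 genes, as upward in 15.2% of all features. LBD16 changed by 2.39 (SE 0.10, adjusted p = 7.85e-08), IAA29 by 2.06 (SE 0.19, adjusted p = 1.67e-05) and WES1 by 1.23 (SE 0.15, adjusted p = 0.000162), again without overlap. IAA20 was at 0.28 (95% interval -0.08 to 0.64, adjusted p = 0.214) and IAA30 at 0.47 (95% interval -0.02 to 0.95, adjusted p = 0.13). Both passed when array medians were made equal (IAA20 0.50, adjusted p = 0.0424; IAA30 0.68, adjusted p = 0.0428), IAA30 also after quantile normalization (0.72, adjusted p = 0.0264) and IAA20 also without root DEX replicate 3 (0.47, adjusted p = 0.025).

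**Figure D2:**
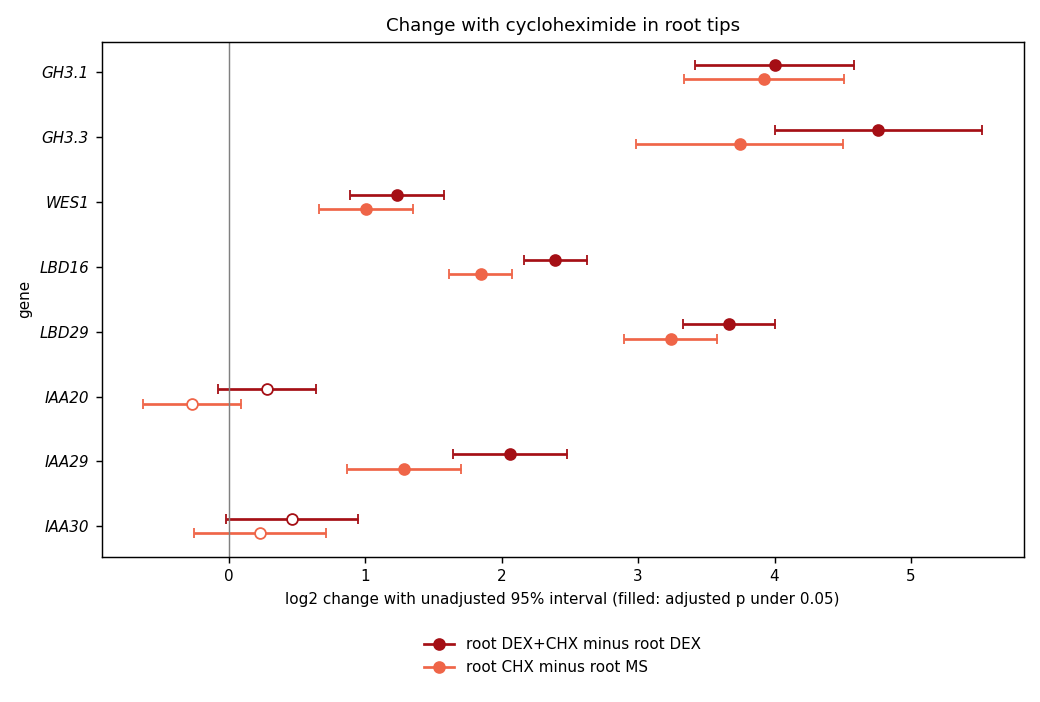
Log2 change with cycloheximide for each gene, with the limma estimate and its unadjusted 95% interval, in root DEX+CHX against root DEX and in root CHX against root MS. Filled points have an adjusted p under 0.05: GH3.1, GH3.3, WES1, LBD16, LBD29 and IAA29 in both comparisons, from 1.01 to 4.76.

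Array medians ranged from 4.61 to 4.65 in root DEX+CHX, against 4.82 to 4.87 in root DEX. They ranged from 4.62 to 4.63 in root CHX, against 4.76 to 4.85 in root MS. Making them equal moved the median change of all features by CHX alone to 0.04, against -0.13 with the values as deposited. Across the 16 alternatives the CHX change of GH3.1 lay between 3.62 and 4.15, that of GH3.3 between 3.52 and 3.92, that of LBD29 between 3.14 and 3.41, that of LBD16 between 1.76 and 2.02, that of IAA29 between 1.18 and 1.55 and that of WES1 between 0.86 and 1.18. The change of IAA20 stayed below 0 in the 15 that kept it, from -0.39 to -0.09. The mean signal of the 4 ground tissue markers ranged from 6.69 to 6.99 in root CHX, against 7.04 to 7.14 in root MS, and 1 of them, GSO1, a receptor kinase gene, was lower by limma (-0.32, adjusted p = 0.0345). That call was lost in 10 of 16 alternatives, among them equal array medians (-0.15, adjusted p = 0.374) and the replicate block (adjusted p = 0.0513). The mean of the 2 epidermis and root hair markers ranged from 8.99 to 9.35 in root CHX, against 9.57 to 9.68 in root MS. Their part in the CHX changes was not tested.

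Other genes of the auxin pathway were taken from lists by family and role. Of 114 loci in 8 lists, 24 had a feature of their own: 11 further GH3 genes, 5 further Aux/IAA genes, 4 YUC genes of auxin synthesis, 3 genes of auxin inactivation and 1 lateral root factor. None of the listed ARFs, TIR1/AFB receptors or auxin transporters had one, and these were not analysed here. The annotation names 17481 of the 38408 features, so such a gap does not show that the array lacks the gene. With CHX alone 4 of the 24 rose and 0 fell, where 10.4% of all features were higher and 19.7% lower. Their median change was 0.08, beside -0.13 over all features and -0.05 over features of exactly 1 gene. IAA18, another Aux/IAA repressor, stood at 6.82 ± 0.21 in root CHX and 6.03 ± 0.22 in root MS (SD, n = 3 each, change 0.79, SE 0.15, adjusted p = 0.0026). PUCHI, an AP2/ERF factor of lateral root primordia, changed by 0.70 (SE 0.20, adjusted p = 0.0245), GH3.17, an auxin-conjugating enzyme, by 0.61 (SE 0.15, adjusted p = 0.0109) and AT1G23160, from the GH3 list, by 0.48 (SE 0.16, adjusted p = 0.046). The changes of the other 9 GH3 genes ranged from -0.38 to 0.43, and none passed. The count was 2 of the 24 without root CHX replicate 1, root CHX replicate 3, root MS replicate 2 or root MS replicate 3, where PUCHI and AT1G23160 did not pass. Without root MS replicate 1 or root CHX replicate 2 AT1G23160 did not pass either.

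With dexamethasone present on both sides, 6 of the 24 rose with CHX and 0 fell, where 11.6% of all features were higher and 22.1% lower. Their median change was 0.15, beside -0.13 over all features and -0.05 over features of exactly 1 gene. PUCHI stood at 1.20 (SE 0.20, adjusted p = 0.00112), AT1G23160 at 1.09 (SE 0.16, adjusted p = 0.000456) and IAA18 at 0.94 (SE 0.15, adjusted p = 0.000763). GH3.17 was at 0.70 (SE 0.15, adjusted p = 0.00446), AT5G51470 of the GH3 list at 0.56 (SE 0.20, adjusted p = 0.0498) and YUC6, an enzyme of auxin synthesis, at 0.54 (SE 0.15, adjusted p = 0.0158). The call of AT5G51470 was lost in 8 of 16 alternatives (adjusted p up to 0.168) and that of YUC6 in 3 (up to 0.0673). No test compared the 24 genes with the 8.

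**Figure D3:**
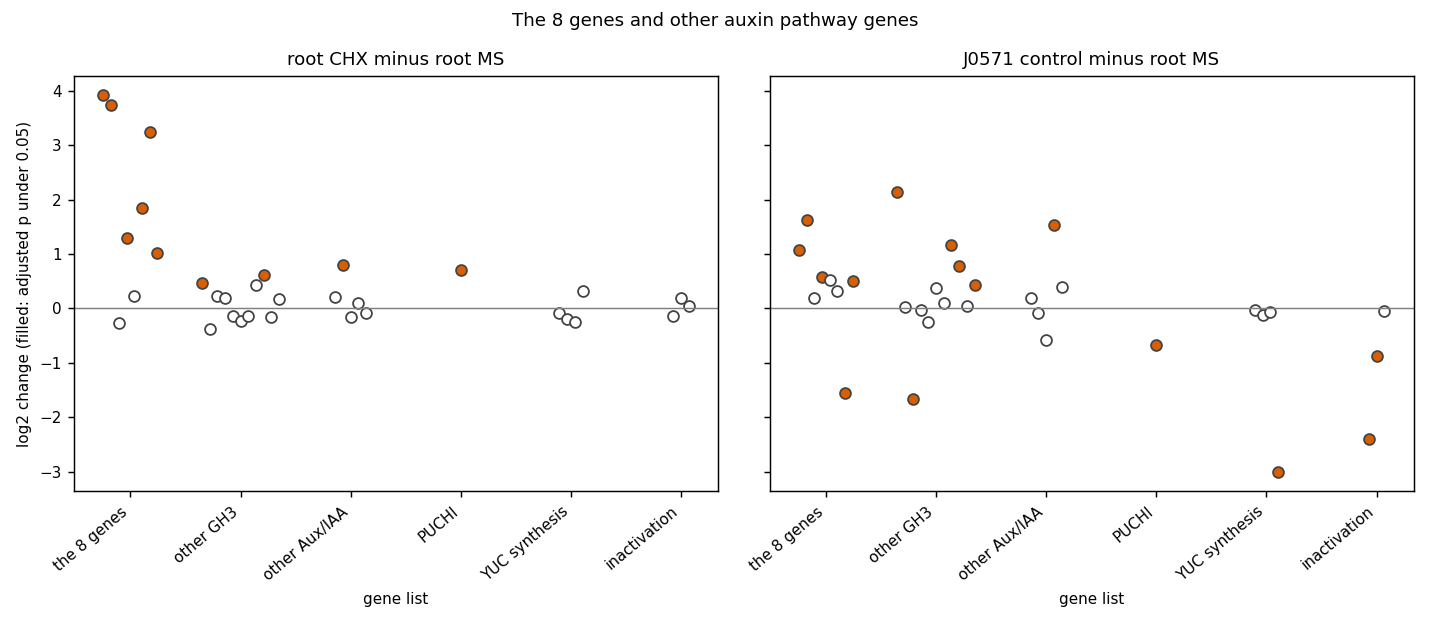
Log2 changes of the 8 genes and of 24 other auxin pathway genes by list, for root CHX against root MS (left) and J0571 control against root MS (right). Each point is a gene and filled points have an adjusted p under 0.05. On the left the filled points of the 8 genes reach 3.92 and those of the other lists 0.79.

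Dexamethasone was the inducer of TMO5-GR, and the root comparison asks which of these genes responded to it within 1 h. With DEX alone 0 of the 8 passed in limma, as did 0% of all features (2368 of 38408 had an unadjusted p under 0.05). The median change of the 8 was -0.17, beside 0.00 over all features. Of the 8 changes 2 were above 0, beside 50.2% of those over all features, and WES1, at -0.0007, was counted below 0. The genes share these arrays, so this count is no test of a DEX effect. Of the 8 genes 1 had an unadjusted p under 0.05. That gene was LBD16, which stood at 7.70, 7.85 and 7.78 in root DEX, against 8.13, 8.13 and 8.04 in root MS (change -0.32, 95% interval -0.55 to -0.09, adjusted p = 0.655). Its groups did not overlap, as for 4.58% of all features in that direction. GH3.3 was at -0.54 (95% interval -1.30 to 0.22), LBD29 at -0.28 (-0.62 to 0.05), IAA20 at -0.23 (-0.59 to 0.13) and IAA30 at -0.10 (-0.59 to 0.38). GH3.1 was at 0.15 (-0.43 to 0.74), IAA29 at 0.10 (-0.32 to 0.51) and WES1 at -0.00 (-0.34 to 0.34). For these 7 genes both groups overlapped. Among the 24 other auxin pathway genes 5 changes were above 0, the median was -0.09 and 0 passed.

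With CHX present in both groups, all 8 changes with DEX were above 0, beside 48.8% of those over all features. The 8 genes share the same arrays and were chosen with earlier results of these data known. Their count of signs is therefore no test of a DEX effect. In limma 0 of the 8 passed, as did 0% of all features (1189 had an unadjusted p under 0.05). IAA29 stood at 5.32, 5.24 and 5.05 in root DEX+CHX, against 4.36, 4.09 and 4.54 in root CHX. Every root DEX+CHX array lay above every root CHX array for IAA29, and for 4.56% of all features, while the groups overlapped for the other 7 genes. Its change was 1.83-fold (log2 0.87, 95% interval 0.46 to 1.29), with an adjusted p of 1 in limma, and of 0.459 to 1 over 16 alternatives. It was the one gene of the 8 with an unadjusted p under 0.05. The next intervals were -0.28 to 1.23 for GH3.3, -0.04 to 0.68 for IAA20 and -0.01 to 0.46 for LBD16.

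The difference between these responses, which equals the difference between both CHX responses, was above 0 for all 8 genes and for 48.9% of all features, with 0% of features past the threshold in limma (1684 had an unadjusted p under 0.05). It was 1.01 for GH3.3 (95% interval -0.06 to 2.09), 0.78 for IAA29 (0.19 to 1.36), 0.55 for IAA20 (0.04 to 1.05), 0.55 for LBD16 (0.22 to 0.88), 0.43 for LBD29 (-0.05 to 0.91), 0.24 for IAA30 (-0.45 to 0.92), 0.23 for WES1 (-0.26 to 0.71) and 0.08 for GH3.1 (-0.75 to 0.90). Adjusted p was 0.932 for LBD16 and 0.999 for the others. The same 12 root arrays gave this difference and the responses it is made of. For the 6 genes below 0 with DEX alone and above 0 with CHX, a difference above 0 follows from those signs. The count of 8 is therefore no result about the set. For GH3.1 the sign turned without root MS replicate 1 (-0.15) and in 4 further fits that left out 1 array. Among the 24 other auxin pathway genes 13 DEX changes with CHX present were above 0, as were 16 of the differences.

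**Figure D4:**
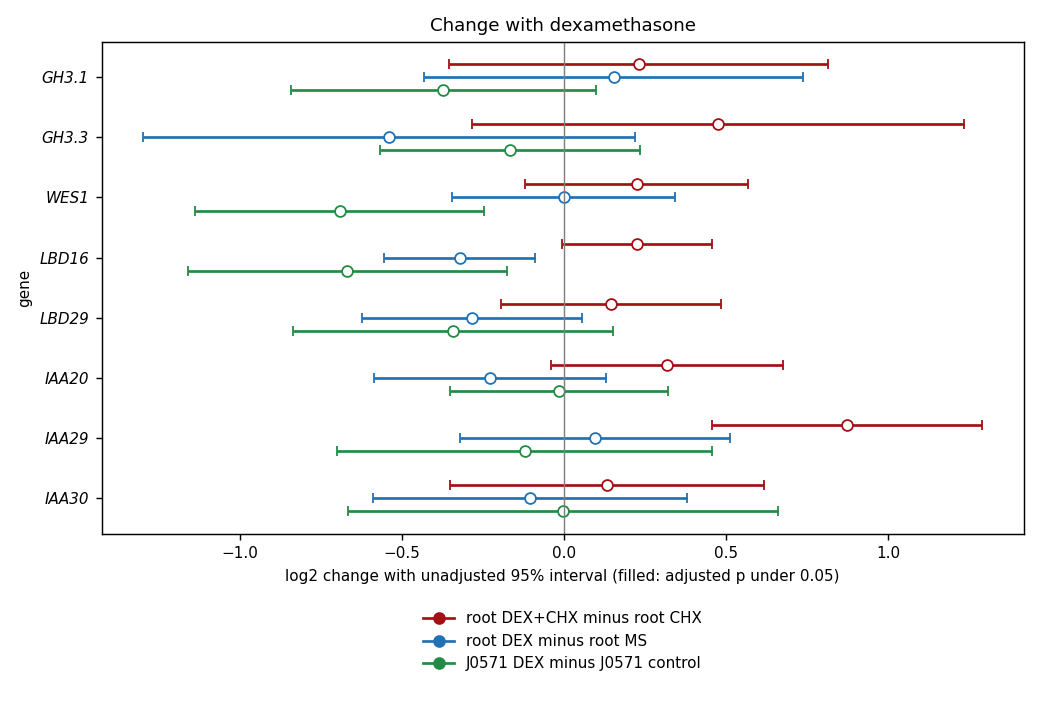
Log2 change with dexamethasone for each gene, with its unadjusted 95% interval, in root tips with CHX, in root tips without CHX and in sorted J0571 cells. All points are open, since none had an adjusted p under 0.05. With CHX the 8 points lie between 0.13 and 0.87, and in J0571 cells between -0.69 and -0.00.

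In sorted J0571 cells, 2 h after transfer, 0 of the 8 genes passed in limma, against 0.0338% of all features (2239 had an unadjusted p under 0.05). All 8 changes were below 0, while 49% over all features were above it, and 2 of the 8 had an unadjusted p under 0.05. The genes share these arrays, so the count of signs is no test of a DEX effect. WES1 stood at 7.81, 7.95 and 8.23 in J0571 DEX, against 8.49, 8.57 and 9.01 in J0571 control (change -0.69, 95% interval -1.14 to -0.25, adjusted p = 0.764). LBD16 stood at 8.02, 7.31 and 7.96 in J0571 DEX, against 8.51, 8.33 and 8.45 in J0571 control (change -0.67, 95% interval -1.16 to -0.18, adjusted p = 0.779). GH3.1 stood at 6.99, 6.78 and 6.95 in J0571 DEX, against 7.70, 7.09 and 7.05 in J0571 control (change -0.37, 95% interval -0.84 to 0.10). In these 3 genes every J0571 DEX array lay below every J0571 control array, as in 6.03% of all features, while the groups overlapped for the other 5. LBD29 was at -0.34 (-0.83 to 0.15), GH3.3 at -0.17 (-0.57 to 0.24) and IAA29 at -0.12 (-0.70 to 0.46). IAA20 was at -0.01 and IAA30 at -0.00, and without J0571 control replicate 2 they were at 0.02 and 0.21. Among the 24 other auxin pathway genes 12 changes were above 0.

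Without J0571 control replicate 3, the array that stood apart, all 8 changes were still below 0, with WES1 at -0.53, LBD16 at -0.66 and GH3.1 at -0.49. In every other fit lacking an array IAA20, IAA29 or IAA30 lay above 0, so the count of 8 did not hold there. These genes reached 0.077, 0.10 and 0.21. Over the 6 fits lacking an array WES1 lay between -0.81 and -0.53, LBD16 between -0.80 and -0.44 and GH3.1 between -0.49 and -0.16, and 0 of the 8 genes passed in any. The mean signal of the ground tissue markers ranged from 8.47 to 8.60 in J0571 DEX, against 8.46 to 8.78 in J0571 control, and that of the epidermis and root hair markers from 7.02 to 7.36 in J0571 DEX, against 6.95 to 7.57 in J0571 control. Their part in these values was not tested.

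The response of J0571 cells was set against that of root tips by the difference of both changes, which also spans ecotype, promoter, time, protoplasting and sorting. In limma 0 of the 8 differences passed, against 0.0521% of all features (2397 had an unadjusted p under 0.05), and the median was -0.14, beside 0.00 over all features. WES1 had the largest difference at -0.69 (95% interval -1.21 to -0.17, adjusted p = 0.634), followed by GH3.1 at -0.53 (-1.29 to 0.24), GH3.3 at 0.37 (-0.55 to 1.29) and LBD16 at -0.35 (-0.81 to 0.12). IAA29 was at -0.22 (-0.88 to 0.45), IAA20 at 0.21 (-0.26 to 0.68), IAA30 at 0.10 (-0.67 to 0.87) and LBD29 at -0.06 (-0.60 to 0.49). Without J0571 control replicate 3 the difference was -0.53 for WES1, -0.64 for GH3.1, 0.44 for GH3.3 and -0.34 for LBD16. In that fit LBD29 turned to 0.06 and IAA30 to -0.08.

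Levels without dexamethasone were compared between the experiments. GH3.1, GH3.3, WES1 and IAA29 were higher in J0571 control than in root MS and LBD29 was lower, by limma over all 18 arrays, where 48.9% of all features passed, 26.5% higher and 22.4% lower. A count of 5 of 8 is near that share and is no result about the set. The median of the 8 changes was 0.51, beside 0.05 over all features and 0.13 over features of exactly 1 gene. Ecotype, construct, treatment time, protoplasting and sorting all differ between these groups and cannot be told apart. The mean signal of the 4 ground tissue markers ranged from 8.46 to 8.78 in J0571 control, against 7.04 to 7.14 in root MS, and that of the 2 epidermis and root hair markers from 6.95 to 7.57 in J0571 control, against 9.57 to 9.68 in root MS. Their part in the differences was not tested.

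GH3.3 stood at 7.67, 7.51 and 7.80 in J0571 control, against 6.17, 6.33 and 5.60 in root MS (change 1.63, SE 0.30, adjusted p = 0.000385), or 3.09-fold. GH3.1 stood at 7.70, 7.09 and 7.05 in J0571 control, against 6.65, 6.35 and 5.58 in root MS (change 1.08, SE 0.25, adjusted p = 0.00225). Neither gene's groups overlapped, as upward in 28.9% of all features. LBD29 went the other way, with 6.20, 6.70 and 6.81 in J0571 control, against 7.94, 8.06 and 8.39 in root MS (change -1.56, SE 0.18, adjusted p = 3.64e-06). Its groups lay fully apart downward, as in 24% of all features, and GH3.3, GH3.1 and LBD29 passed whichever of the 6 arrays was dropped. Without J0571 control replicate 3 the changes were 1.56 for GH3.3, 1.20 for GH3.1 and -1.68 for LBD29.

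Other calls of this comparison depended on single arrays. WES1 was at 0.50 (SE 0.17, adjusted p = 0.0249), a call lost without root MS replicate 3 (0.123) or J0571 control replicate 3 (0.129). IAA29 was at 0.58 (SE 0.22, adjusted p = 0.0402), a call lost without root MS replicate 2 (0.0899), root MS replicate 3 (0.106), J0571 control replicate 2 (0.118) or J0571 control replicate 3 (0.135). LBD16 was at 0.33 (adjusted p = 0.0908), IAA30 at 0.52 (adjusted p = 0.107) and IAA20 at 0.19 (adjusted p = 0.351). A call of IAA30 was gained without root MS replicate 3 (0.72, adjusted p = 0.0429) or J0571 control replicate 3 (0.71, adjusted p = 0.0484). When array medians were made equal all 8 passed, 7 higher and LBD29 lower, while the median change over all features was then 0.30. Of the 24 other auxin pathway genes 5 were higher and 5 lower, where 26.5% of all features were higher and 22.4% lower, and their median was -0.03. YUC6 was at -3.01 (SE 0.17, adjusted p = 1.98e-09), AT1G23160 at 2.13 (SE 0.16, adjusted p = 4.32e-08), AT1G48670 of the GH3 list at -1.66 (SE 0.20, adjusted p = 7.16e-06) and IAA33 at 1.53 (SE 0.17, adjusted p = 2.76e-06). AT5G51470 followed at 1.17 (SE 0.19, adjusted p = 0.000133) and GH3.17 at 0.77 (SE 0.14, adjusted p = 0.000232).

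The order of the 6 groups was alike at the top for the 6 genes that rose with CHX, with root DEX+CHX first and root CHX second in each. These neighbours overlapped except in IAA29. Below them GH3.1 ran J0571 control, J0571 DEX, root DEX and root MS, with overlap only between the last pair. GH3.3 ran J0571 control, J0571 DEX, root MS and root DEX, and overlapped within each experiment but not between them. LBD29 ran root MS, root DEX, J0571 control and J0571 DEX, likewise with overlap within each experiment only. No share over all features was counted for these neighbouring pairs between experiments. J0571 control and root MS lay fully apart in 28.9% of all features upward and in 24% downward, so such gaps are common. WES1 and LBD16 shared the order J0571 control, root MS, root DEX and J0571 DEX. For LBD16 root DEX and J0571 DEX overlapped, at 7.78 ± 0.07 and 7.76 ± 0.39 (SD, n = 3 each). For WES1 the ranges of root CHX and J0571 control overlapped too, as did root MS with root DEX and root DEX with J0571 DEX. Its means of root MS and root DEX differed by only 0.00071. For IAA29 the 4 lower groups, J0571 control, J0571 DEX, root DEX and root MS, overlapped as neighbours. IAA20 and IAA30 had J0571 control and J0571 DEX at the top, every pair of neighbours overlapped, and their group means spanned only 0.45 and 0.63.

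Over the 18 arrays the members correlated with one another with a median r of 0.73 over 28 pairs, from -0.40 for LBD29 and IAA20 to 0.95 for GH3.1 and LBD16. These arrays share 6 CHX arrays that lie far from the rest for most of the genes. After each group's mean was taken off, the median r of the pairs was -0.09 and 11 of 28 were above 0, the highest being 0.63 for GH3.3 and WES1.

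Among 16403 other loci with a feature of their own, those most like the mean of the 8 genes over the 18 arrays were AT5G52670 (r = 0.99), AT2G41835, AT1G30190, AT2G41410 and AT5G44350. All 5 were higher in the CHX groups: AT1G30190 averaged 9.84 in root DEX+CHX, 9.62 in root CHX, 3.11 in root DEX and 3.14 in root MS, and 4.19 in J0571 DEX and 4.14 in J0571 control. Taken singly, the closest locus was AT4G02200 for GH3.1 (r = 0.99), AT1G07135 for GH3.3 (0.98), STN1 for WES1 (0.94), AT4G37295 for LBD16 (0.98), AT4G19920 for LBD29 (0.99) and AT5G04550 for IAA29 (0.95). For IAA20 and IAA30 the best values were lower, 0.83 with AT1G27060 and 0.80 with NVL. AT4G19920 followed LBD29 also in being lower in J0571 cells, with group means of 9.12 in root DEX+CHX, 8.96 in root CHX, 6.08 in root DEX and 6.29 in root MS, against 5.05 in J0571 DEX and 5.26 in J0571 control. These are descriptions over arrays that share their treatments.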

How the data were processed

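Biotin-labelled whole-transcript cDNA of 18 samples was read on gene arrays, per the labels' protocols. The authors deposited RMA signals on a log2 scale, per the submitters' processing notes. No source used here gives the RMA version or says if the experiments were normalized jointly. Features were named from GEO's platform annotation and joined through Entrez identifiers to 16411 loci of RefSeq's TAIR10.1. In R 4.3.3, limma 3.58.1 fitted a mean per group to the 12 root arrays, to the 6 J0571 arrays and, for contrasts between them, to all 18. Moderated two-sided tests were adjusted by Benjamini-Hochberg across the 38408 features, and an adjusted p under 0.05 counted as passed. Intervals are unadjusted, at 95%. The labels do not say whether repeats were separate cultures, so p-values measure the spread between these samples.

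Named besides the 8 genes are list members past the threshold (at most 6 per contrast, by p), the 5 loci of highest r with the mean of the 8, and 1 per gene. Members and lists were chosen with earlier results of these data known. The fit was tested on simulated data. Alternatives were a replicate block, quantile normalization, equal array medians, leaving out the lowest 25% of features, trend and robust options, array weights, other sets of arrays or features, and each array left out.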

Additional observations from a re-analysis of the deposited data

How the results depend on the processing

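The 6 genes that rose with CHX passed both CHX comparisons in each of 16 alternatives, and 0 of the 8 passed in any alternative of the DEX responses and their differences. Against root MS, J0571 control had 5 genes past the threshold, 8 with array medians made equal, and 4 to 5 when an array was left out. Deviations of same-numbered arrays correlated with r from -0.243 to 0.197 in the root groups, where 3 of 12 arrays correlated best with their own number. In the J0571 groups r was 0.018 to 0.254, with 2 of 3 pairs over 0.1, and 5 of 6 arrays correlated best with their own number, a hint from the data and not from the design. The labels name no pairing, and the samples were treated as sharing only a number. With the replicate block 6, 6 and 0 of the 8 genes passed for CHX alone, CHX with DEX and J0571 DEX, as without it, and over all features 11002, 12538 and 0 passed, against 11546, 12935 and 13 without it.

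Signs turned only in values that passed under no setting. For the response of J0571 cells to DEX, quantile normalization put IAA20 at 0.00 (0.0037 before rounding) and IAA30 at 0.039, and equal medians put them at 0.019 and 0.031. When an array was left out, IAA20 ranged from -0.11 to 0.077, IAA29 from -0.30 to 0.10 and IAA30 from -0.23 to 0.21. For the difference between the J0571 and root responses, LBD29 was at 0.019 with equal medians and from -0.24 to 0.078 with an array left out. There IAA29 ranged from -0.44 to 0.0057 and IAA30 from -0.13 to 0.32, and IAA30 was at -0.0046 with array weights. For DEX alone in root tips, leaving out an array moved GH3.1 between -0.15 and 0.38, WES1 between -0.15 and 0.13, IAA29 between -0.056 and 0.32 and IAA30 between -0.22 and 0.093. For the difference between both DEX responses in root tips, GH3.1 ranged from -0.15 to 0.39. For other auxin genes with CHX alone, the count of 4 lay between 2 and 4 when an array was left out and between 2 and 6 over all 16 alternatives, and the count of 6 for CHX with DEX lay between 4 and 9. The cause was not tested. Leaving out the lowest 25% of features left no value for IAA20 in any comparison and one for IAA30 only in the J0571 DEX response, and 3 arrays a group limit the precision.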
